A study of Mus musculus with 12 samples.

Results

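Letter F against letter D is a comparison inside one set of bulk RNA-seq libraries from the E13.5 mouse cortex. The submitters' description of each library opens with a letter, F or D, and no label says what the letters stand for. Letter F holds 3 of the 9 bulk libraries and of the 12 samples in the series: F4_KO, homozygous for a Med13l null allele, F1_Het, heterozygous for it, and F3_WT, wild type. Letter D holds the other 6: D3_KO and D8_KO, D1_Het and D4_Het, and D5_WT and D6_WT, so every genotype has 1 F and 2 D libraries. All embryos came from matings among Med13l heterozygous mice, all tissue is labelled embryonic brain cortex, and no treatment is named. The labels do not name the strain, the litters or the sex of the bulk embryos. Single-cell samples, in which 5 embryos were pooled, are not used here. Nothing in the labels says whether libraries of a letter share a litter, a dissection or a sequencing run, so p-values measure only the spread between these libraries, and anything else that goes with the letter cannot be told apart from it.

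At this age the dorsal telencephalon is a sheet of radial glia, which divide at the ventricle, with intermediate progenitors and the first neurons above them. Vessels enter it from a covering of meninges, the hem and choroid plexus border it medially, and the ganglionic eminences, where Dlx genes mark precursors of inhibitory neurons, border it laterally. Genes of these neighbours are thus a common check of what a cortical dissection carried. A second kind of gene needs introduction. Processed pseudogenes are copies of a messenger RNA that were reverse transcribed and inserted elsewhere in the genome. A read from the parent gene can match such a copy almost as well as its source. How reads that match several places were counted, and whether strand was used, is not given in the sources used here, so the counts of copies and of overlapping genes are uncertain.

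By the edgeR test few genes separated letter F from letter D libraries, and those that did were mostly copies of highly expressed genes. With genotype in the model, 7 of 18844 tested genes (0.0371%) passed an adjusted p under 0.05, by edgeR's quasi-likelihood test with Benjamini-Hochberg adjustment, and all 7 rose in F. No gene fell: 0 of 18844 passed in that direction, where limma-voom called 1 and DESeq2 133. At an unadjusted p under 0.05 there were 1155 genes (6.13%) by the edgeR test, 307 higher in F (1.63%) and 848 lower (4.5%). Of the 7, 6 were processed pseudogenes, a class that made up 1227 of the tested genes (6.51%), and the other was an antisense gene of the major histocompatibility complex (MHC). None of the 15032 tested protein-coding genes passed, and adjusting over those genes alone gave 0 calls as well, with 937 at an unadjusted p under 0.05. DESeq2 called 177 genes (0.939%), 44 higher (0.233%) and 133 lower (0.706%), of which 27 and 111 were protein coding.

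The sequences show how close the copies are to their parents. Below is a stretch of 90 bases of 3 of the called pseudogenes beside the coding sequence of the parent, written 5′ to 3′ as in the GENCODE M21 transcripts on GRCm38, with capitals at the bases that differ. For the copy of Actg1, the gene of cytoplasmic gamma-actin, the stretch is chr13:81065374-81065463 on the plus strand, coding positions 699 to 788 of the parent. Its differences are G721A and G768T, the parent's base first and positions counted from 1 at the A of the start codon.
Gm8399: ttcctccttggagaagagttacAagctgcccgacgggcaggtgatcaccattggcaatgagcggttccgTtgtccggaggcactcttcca
Actg1: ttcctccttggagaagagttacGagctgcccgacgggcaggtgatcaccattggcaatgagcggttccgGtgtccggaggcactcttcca
For the copy of Phb, which encodes the mitochondrial scaffold protein prohibitin, the stretch is chr15:6654108-6654197 on the plus strand, coding positions 186 to 275. A231G is the only substitution in the whole 819-base copy.
Gm7666: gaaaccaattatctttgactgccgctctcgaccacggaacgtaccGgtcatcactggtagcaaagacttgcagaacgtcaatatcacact
Phb: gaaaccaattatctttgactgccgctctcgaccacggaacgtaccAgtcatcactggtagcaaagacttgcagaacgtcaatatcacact
For the copy of Ckb, the brain form of creatine kinase, the stretch is chr4:122008568-122008657 on the plus strand, coding positions 376 to 465, with 9 of its 31 mismatches.
Gm12892: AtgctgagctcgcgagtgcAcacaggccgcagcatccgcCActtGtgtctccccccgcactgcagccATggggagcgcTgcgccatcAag
Ckb: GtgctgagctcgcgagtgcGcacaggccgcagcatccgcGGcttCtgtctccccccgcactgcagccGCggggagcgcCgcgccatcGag

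Gm8399, the gamma-actin copy on chromosome 13 (81064684 to 81065800), was the called gene with the smallest p. It had 58.9 CPM (counts scaled to library size) in F1_Het, 72.8 in F3_WT and 64.7 in F4_KO, against a range of 13.1 to 16.0 CPM and a median of 15.1 CPM in the 6 D libraries. All F libraries lay far above all D libraries, and the spread inside each letter was small. Its log2 fold change was 2.15 ± 0.10 (SE), with an edgeR adjusted p of 0.000449. The difference of log2 CPM between F and D was lowest within Het, at 1.89, and highest within WT, at 2.35, so each genotype showed the same direction. Actg1 itself, on chromosome 11, had 1788, 1881 and 1757 CPM in F1_Het, F3_WT and F4_KO, and a median of 1832 CPM in D libraries (1596 to 2067). The letters overlapped for the parent, whose log2 fold change was -0.00 ± 0.09 (edgeR adjusted p = 0.999).

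The other copies of gamma-actin did not pass the test. Of 9 copies of at least 90% identity in the annotation, 4 were tested. Gm12715, which matches Actg1 at 99.6%, had 291 ± 5.1 CPM in F and 285 ± 21.2 CPM in D (SD, n = 3 and 6), a log2 fold change of 0.04 ± 0.07. Actg-ps1, at 98.3%, had 1.25 to 1.70 CPM in F libraries and 0.546 to 1.25 CPM in D libraries, the lowest F just above the highest D library, with an edgeR adjusted p of 0.801. Gm16385 overlapped between the letters. The sum over Actg1 and its tested copies was 2169 ± 75.0 CPM in F and 2115 ± 176 CPM in D, so the family total of the letters differed by less than the spread of the D libraries. Actg1 makes up most of this sum, so the sum says little about Gm8399.

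Gm12892, the creatine kinase copy on chromosome 4 (122008193 to 122009338), had 11.8, 13.3 and 10.9 CPM in F1_Het, F3_WT and F4_KO. The D libraries ran from 2.88 to 4.27 CPM, with a median of 3.50 CPM. No D library reached the lowest F library, and the log2 fold change was 1.77 ± 0.15 (edgeR adjusted p = 0.0175). Ckb, on chromosome 12, averaged 316 ± 11.1 CPM in F and 335 ± 9.5 CPM in D, with overlapping libraries and a log2 fold change of -0.08 ± 0.06. The sum of Ckb and this copy was 328 ± 10.1 CPM in F and 338 ± 9.4 CPM in D.

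Gm7666, the prohibitin copy on chromosome 15 (6653923 to 6654741), had the least change of the 7. Its level was 21.8, 23.7 and 21.2 CPM in F1_Het, F3_WT and F4_KO, against 11.03 to 13.0 CPM in D libraries (median 12.5). The letters were apart for this copy too, at a log2 fold change of 0.86 ± 0.08 (edgeR adjusted p = 0.0289). Phb, on chromosome 11, had 75.5 ± 4.2 CPM in F and 77.7 ± 4.9 CPM in D, which overlap. The sum of Phb and this copy was 97.8 ± 5.5 CPM in F and 89.97 ± 5.2 CPM in D. Its range was 94.6 to 104 CPM in F and 83.45 to 96.9 CPM in D, so the letters overlapped.

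Rpl17, which encodes a protein of the large ribosomal subunit, has the largest family of copies among the 4 parents. The annotation holds 49 of them at 90% identity or more, 10 were tested, and 3 passed, all higher in F. Rpl17-ps5 on chromosome 5 (22612628 to 22613182), with 2 mismatches to Rpl17, had 56.4, 62.9 and 54.7 CPM in F1_Het, F3_WT and F4_KO, against 14.9 to 24.3 CPM in D libraries (median 19.7). Gm46209 on chromosome 10 (7458356 to 7458908), with 6 mismatches, had 5.19, 5.56 and 4.95 CPM in the F libraries, against 0.156 to 0.423 CPM in the D libraries (median 0.224). Rpl17-ps4 on chromosome 4 (63895545 to 63896099), with 9 mismatches, was low throughout, at 0.506, 0.941 and 0.727 CPM in F libraries and 0.0225 to 0.0891 CPM in D libraries (median 0.0417). All 3 had every F library above every D library, with log2 fold changes of 1.61 ± 0.16, 4.38 ± 0.34 and 3.95 ± 0.42 and edgeR adjusted p of 0.0289, 0.0107 and 0.049. The log2 fold change of Rpl17-ps4 rests on 92 reads in F.

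The 7 other tested Rpl17 copies overlapped between F and D. Their log2 fold changes ran from -0.26 for Rpl17-ps3 to 0.72 for Gm10362. Rpl17-ps8 and Rpl17-ps9, which match Rpl17 as closely as Rpl17-ps5 does (99.6%), had 6.59 ± 1.81 and 4.97 ± 0.69 CPM in F, against 6.72 ± 1.64 and 5.26 ± 0.86 CPM in D. Rpl17 had 265 ± 30.9 CPM in F and 289 ± 39.4 CPM in D, a log2 fold change of -0.13 ± 0.13. Summed over the tested copies, the level was 118 ± 11.2 CPM in F and 78.5 ± 13.1 CPM in D. With the parent added it was 383 ± 42.1 CPM in F and 368 ± 52.5 CPM in D, which overlap. No sequence of this family is printed.

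**Figure D1:**
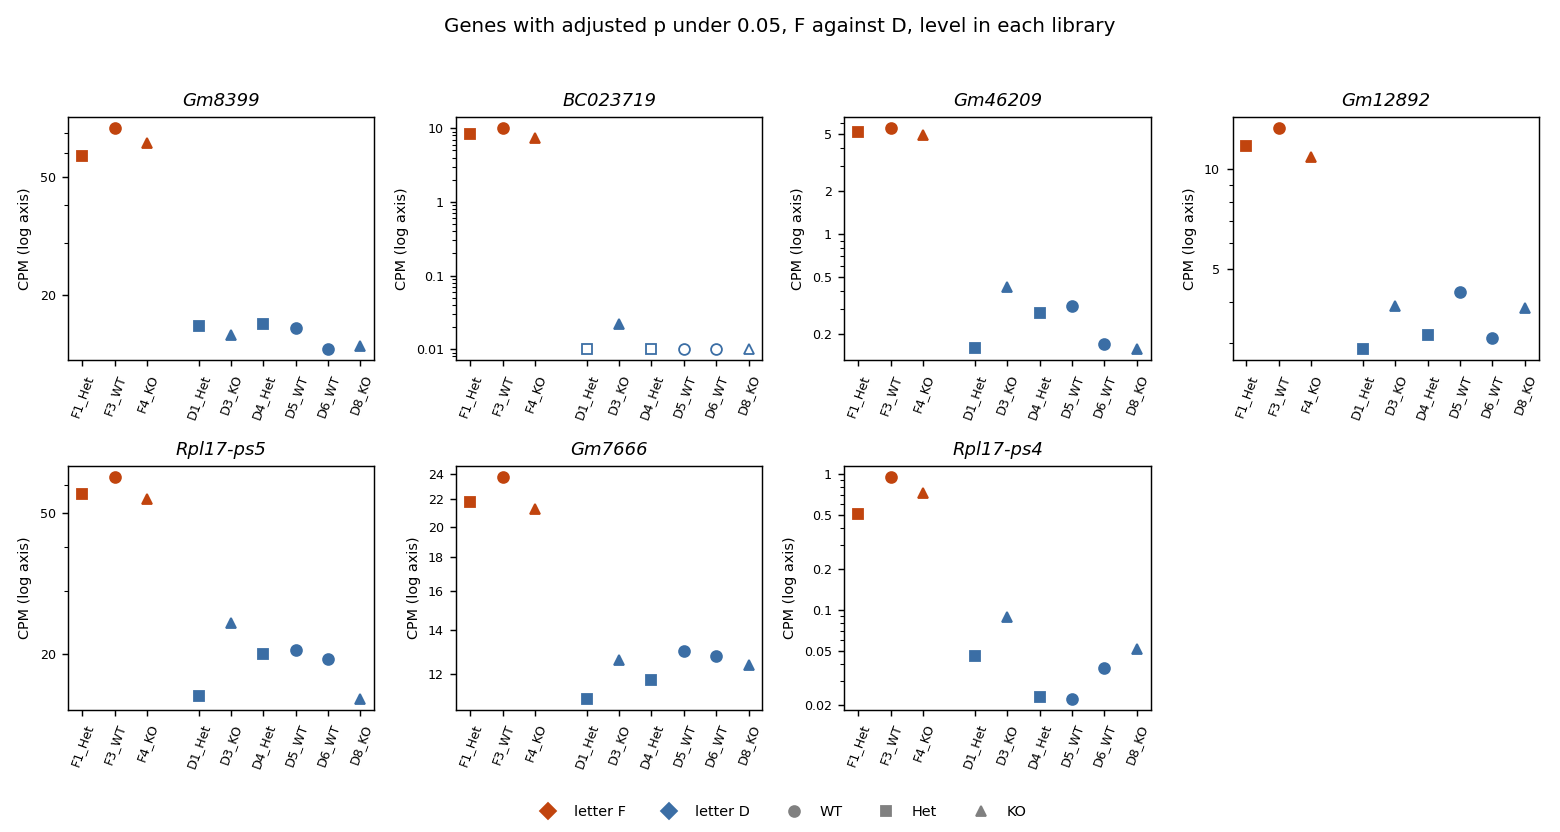
CPM on a log axis in each library for the 7 genes past the threshold, with the 3 letter F libraries on the left, the 6 letter D libraries on the right and marker shapes for genotype. Open markers at the foot of the BC023719 panel are libraries with 0 counts, and in all panels every F library lies above every D library.

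**Figure D2:**
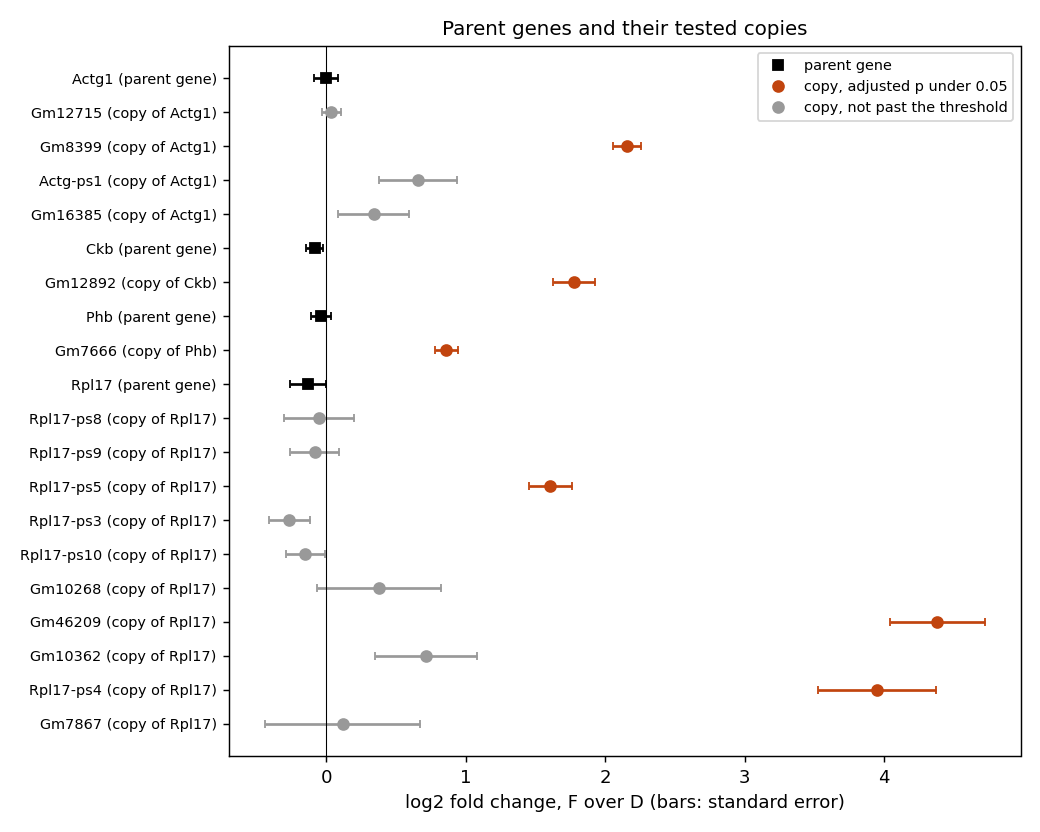
Log2 fold change of F over D, with standard error bars, for Actg1, Ckb, Phb, Rpl17 and their tested copies. The 4 parent genes lie between -0.13 and -0.00, and the 6 called copies between 0.86 and 4.38.

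The one called gene that is not a processed pseudogene was BC023719, an antisense gene on chromosome 17 (36111426 to 36117121, plus strand) in the part of the MHC that holds the nonclassical class I genes of the H2-T group. It had 8.34, 10.1 and 7.29 CPM in F1_Het, F3_WT and F4_KO. In D it had 0 counts in 5 libraries and 1 count in D3_KO. Summed, these are 1074 reads in F and 1 read in D, a ratio of CPM of 2305 with a 95% interval of 413 to 91115 that covers counting error only, and the edgeR adjusted p was 0.000449. Its span overlaps that of H2-T10 (36115876 to 36121465) on the opposite strand, so reads of the pair cannot be told apart where strand was not used. H2-T10 belongs to the class I genes and is annotated as a polymorphic pseudogene. H2-T10 had 1.15, 1.39 and 1.10 CPM in F1_Het, F3_WT and F4_KO, against 0.0891 to 0.404 CPM in D libraries, again with no overlap, and did not pass (log2 fold change 2.39 ± 0.33, edgeR adjusted p = 0.167).

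Neighbours in the same region gave differences of either sign. Beside BC023719 none passed the adjusted threshold by edgeR. The window from 30 to 40 Mb held 8 of 204 tested genes (3.92%) with an unadjusted p under 0.01 by edgeR, beside 1.53% of all genes. DESeq2 called 7 of the 8, all but C4a, but the 8 were picked by p from the same counts. Kank3, C4a and Stk19, among the 8, had log2 fold changes of -0.45, 0.70 and 0.45. The genes given next in full are also among the 8 and were chosen after their values were seen. A930015D03Rik, a further antisense gene, had 3.92, 4.64 and 2.58 CPM in F1_Het, F3_WT and F4_KO, against 0.245 to 2.44 CPM in D libraries. H2-T22, a nonclassical class I gene, had 4.69, 4.61 and 4.60 CPM in the F libraries, against 6.16 to 10.4 CPM in the D libraries. H2-T23, which encodes the Qa-1 molecule, had 1.28, 2.24 and 1.24 CPM in F and 1.90 to 4.25 CPM in D. The letters did not overlap for A930015D03Rik and H2-T22, and did for H2-T23. The span of A930015D03Rik holds that of H2-T23 and overlaps that of H2-T22, both on the opposite strand. Where strand was not used, reads from the shared stretches cannot be told apart. Over the interferon and MHC list, 7 of 21 tested members had a positive and 14 a negative log2 fold change, with a median of -0.05. None passed by edgeR, and DESeq2 called H2-T23.

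**Figure D3:**
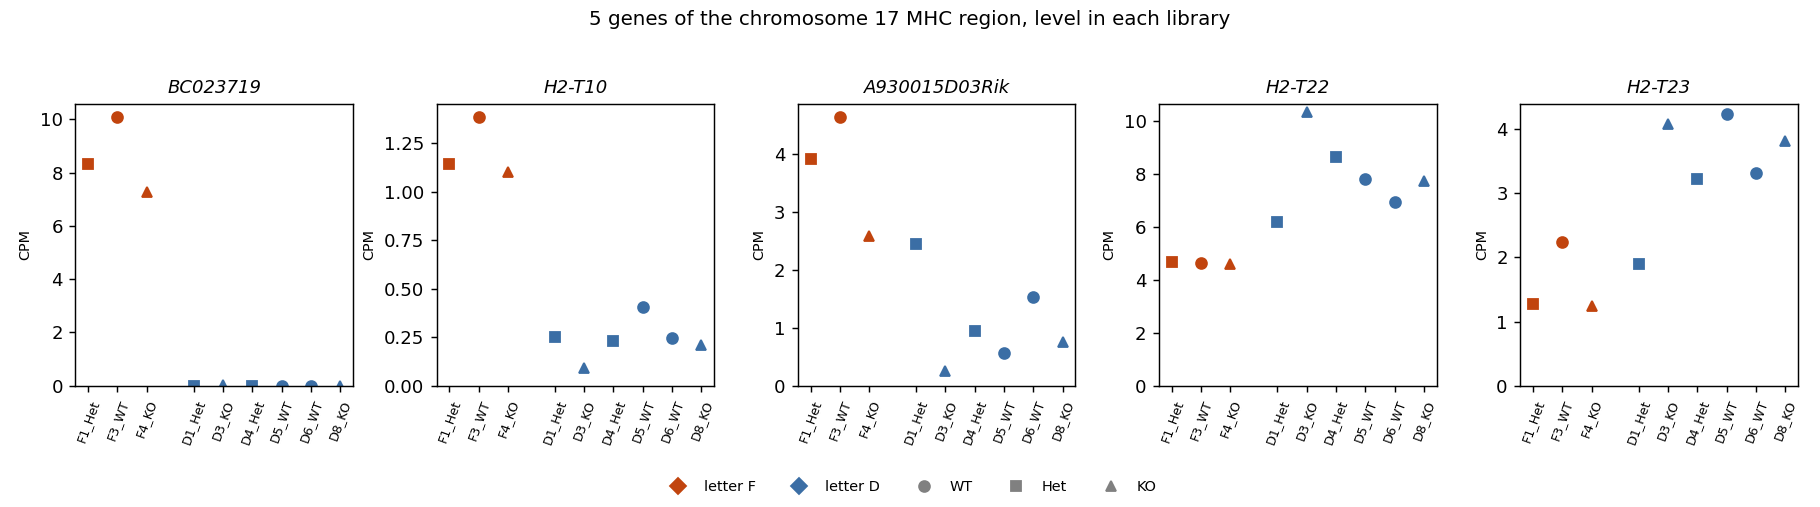
CPM in each library for BC023719, H2-T10, A930015D03Rik, H2-T22 and H2-T23 of chromosome 17, letter F on the left and letter D on the right. BC023719 lies between 7.29 and 10.1 CPM in the F libraries and at or next to 0 in the D libraries, while H2-T22 is lower in F.

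Genes that followed by unadjusted p are given as values, since none of the 10 passed by edgeR. DESeq2 called all 10 and limma-voom 1, Gm43808, but the 10 were picked by edgeR p from the same counts. On the higher side they were Gm8797, H2-T10, Gm9770, Gm13404 and Ccl28. Gm8797, which matches the polyubiquitin gene Ubb at 98.2% over 384 bases, had 6.23, 9.34 and 11.6 CPM in F1_Het, F3_WT and F4_KO, against 1.59 to 3.03 CPM in D libraries (edgeR adjusted p = 0.148). Ubb averaged 1362 ± 125 CPM in F and 1369 ± 51.9 CPM in D. Gm9770, a processed pseudogene that matches the phosphatase gene Ctdsp2 at 99.5%, had 11.04 to 13.9 CPM in F libraries and 3.93 to 7.24 CPM in D libraries (edgeR adjusted p = 0.322), where Ctdsp2 had 244 ± 4.2 and 259 ± 45.0 CPM. So 2 of these 5 are again near-copies of abundant transcripts whose source did not differ beyond its spread. Ccl28, a mucosal chemokine, had 2.40, 1.43 and 3.12 CPM in F1_Het, F3_WT and F4_KO and at most 0.170 CPM in D libraries, 2 of which had none. Gm13404, a long noncoding RNA, had 2.81 to 3.61 CPM in F and 0.579 to 1.48 CPM in D.

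On the lower side stood Gm26826, Gm43808, Gm266, Dap and Apcdd1, with edgeR adjusted p between 0.15 and 0.167. Gm43808 had no read in the 3 F libraries and 0.334 to 0.708 CPM in every D library, at least 7.86-fold lower in F against a floor of 3 counts per library. It lies antisense to Tmem214, with which it shares 1055 bases, and Tmem214 had 57.5 ± 2.7 CPM in F and 59.7 ± 9.9 CPM in D. Gm26826, an antisense gene on chromosome 6, had 3 reads in F and 213 in D, a ratio of D to F of 33.1 with a 95% counting interval of 11.2 to 162. Gm266 had 0.0799, 0.0448 and 0.188 CPM in F1_Het, F3_WT and F4_KO, against 0.966 to 2.55 CPM in D libraries. Dap, a gene linked to cell death and autophagy, had 9.75, 10.1 and 12.01 CPM in the F libraries and 15.0 to 18.4 CPM in the D libraries. Apcdd1, an inhibitor of Wnt signalling, had 132, 143 and 124 CPM in F and 190 to 222 CPM in D, a log2 fold change of -0.57 ± 0.08. All 5 were lower in F within each genotype.

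A gap of at least 2-fold between the lowest library of one letter and the highest of the other, at 0.3 CPM or more, was met by 11 genes above (0.0584% of those tested) and 6 genes below (0.0318%). Of these 17, 6 were processed pseudogenes and 5 were protein coding. Beside genes given above, the lower 6 hold Gm6257, Pla2g4e, Spx and Gm46404, named from this rule after their values were seen. Gm6257, a processed pseudogene that matches the splicing-linked gene Dnajc17 at 97.0%, had 0 reads in all F libraries and 0.936 to 2.75 CPM in D libraries, at least 25.1-fold lower against the same floor. Dnajc17 had 15.6 ± 1.9 CPM in F and 14.1 ± 1.3 CPM in D. Pla2g4e, a cytosolic phospholipase, had 0.293 to 0.470 CPM in F and 1.81 to 13.47 CPM in D. Spx, which encodes the peptide spexin, had 0.0533 to 0.403 CPM in F and 1.07 to 3.31 CPM in D. Gm46404, a long noncoding RNA on chromosome 13, had 2.67 to 3.49 CPM in F and 7.20 to 15.7 CPM in D. On the higher side Gm35256, a long noncoding RNA, had 0.305 to 0.453 CPM in F and 0 to 0.151 CPM in D, and Gm47541, a sense intronic gene, had 0.515 to 1.25 CPM in F and 0 to 0.111 CPM in D. Of the 17, 11 were not among the 7 genes called by edgeR, and DESeq2 called 10 of those 11, all but Gm35256. These 11 were picked by their gap in the same counts.

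Genes with small p were unevenly spread over the chromosomes. At an unadjusted p under 0.01 by the edgeR test there were 289 of 18844 genes (1.53%), 78 higher (0.414%) and 211 lower (1.12%) in F. Chromosome 6 held 38 of 941 (4.04%), chromosome 2 49 of 1449 (3.38%), chromosome 17 24 of 898 (2.67%) and chromosome 13 18 of 759 (2.37%). Every other autosome and the X chromosome lay between 0.51% (chromosome 3) and 1.65% (chromosome 12). By direction, chromosome 6 had 10 higher and 28 lower genes and chromosome 2 had 9 higher and 40 lower. These counts are a description, since neighbours share regulatory sequence, and overlapping or duplicated genes can share reads.

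Within chromosomes, the windows of 10 megabases with the most genes at an unadjusted p under 0.01 held 6 to 11 of them. All other windows held 5 or fewer. The window from 120 to 130 Mb of chromosome 2 held 11 of 123 tested genes, 2 higher and 9 lower in F. Among the higher was Eif3j1, a translation initiation factor subunit, at 76.7, 76.7 and 69.1 CPM in F1_Het, F3_WT and F4_KO and 42.6 to 57.3 CPM in D libraries. Among the lower was the arginine:glycine amidinotransferase gene Gatm, at 10.2 to 14.2 CPM in F and 13.8 to 31.4 CPM in D. The window from 120 to 130 Mb of chromosome 6 held 10 of 132, 1 higher and 9 lower, among the lower Prmt8, a neuronal arginine methyltransferase, at 11.4, 14.7 and 9.68 CPM in F1_Het, F3_WT and F4_KO and 17.3 to 37.9 CPM in D. The window from 80 to 90 Mb of chromosome 2 held 8 of 42 (19%), all lower, but 7 of these are neighbouring genes of one group, Gm13691 and Gm13693 to Gm13698, with the same or nearly the same counts. Gm13698 had 0.0266 to 0.188 CPM in F and 2.95 to 3.30 CPM in D libraries except D4_Het, where it had 0.0694 CPM, so the letters overlapped. The window from 60 to 70 Mb of chromosome 2 held 6 of 48 (12.5%), 1 higher and 5 lower. That from 30 to 40 Mb of chromosome 2 held 6 of 148 (4.05%), also 1 higher and 5 lower. The genes of this paragraph were chosen after their values were seen, and none passed the adjusted threshold by edgeR. DESeq2 called 5 of the 11, 6 of the 10 and 7 of the 8 genes of the first 3 windows, Eif3j1 and Prmt8 among them. Over all tested genes it called 0.939%. The window genes were picked by edgeR p from the same counts, so these calls are no separate support. In the third window the 7 are the group of Gm13691 and its neighbours.

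**Figure D4:**
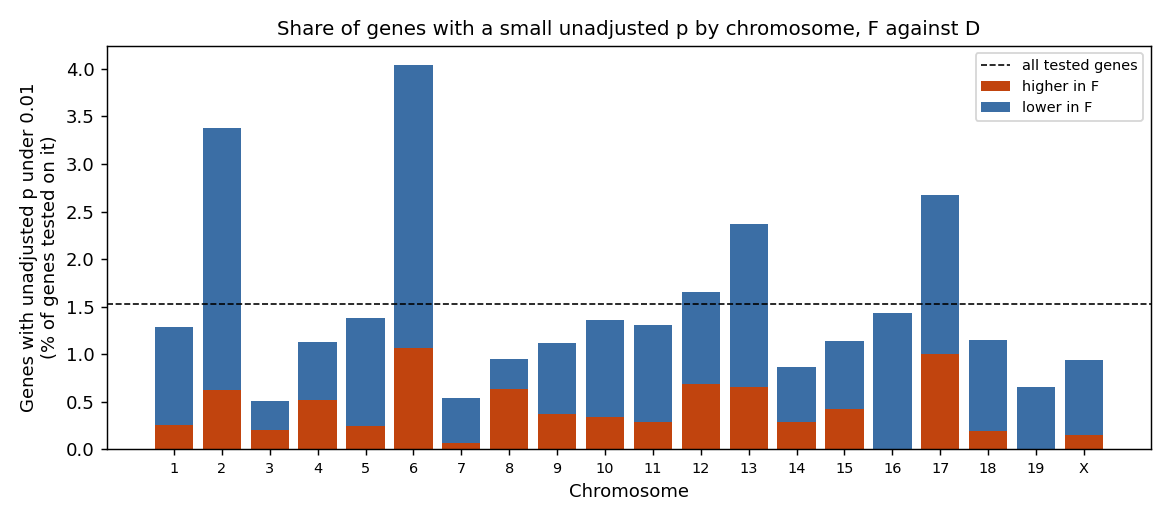
Percent of tested genes on each autosome and the X chromosome with an unadjusted p under 0.01, split into higher and lower in F. The dashed line is the share over all tested genes (1.53%). Chromosomes 6 and 2 stand highest, at 4.04% and 3.38%.

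Markers of vessels and meninges were lower in F as values. None passed the adjusted test by edgeR, and DESeq2 called 2 of 20 in each of both lists, all lower in F: Kcnj8 and Vtn, and Igf2 and Slc6a13. Over all tested genes DESeq2 called 0.706% lower in F. The endothelial and mural list had 20 of 20 tested members with a negative log2 fold change and a median of -0.48, where the median over all tested genes was -0.0057, 48.4% were positive and 51.6% negative. At an unadjusted p under 0.05, 12 of the 20 were lower and none higher, beside the 4.5% of all genes that were lower. Kdr, the VEGF receptor of endothelium, had 81.7, 64.8 and 88.3 CPM in F1_Het, F3_WT and F4_KO, against 79.3 to 178 CPM in D libraries (median 115). Cdh5, endothelial cadherin, had 73.8, 61.7 and 78.4 CPM in F and 57.2 to 175 CPM in D. Both overlapped, since D1_Het lay among or below the F libraries, and D3_KO and D8_KO were the highest. Members with every F library below every D library were Rgs5 and Kcnj8, markers of pericytes, and Cldn5, a tight junction protein of brain endothelium, 3 of 20 beside 1.92% of all genes. These 3 were named after their values were seen.

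This difference was not of one size over the genotypes. The mean of the list, as centred log2 CPM, was -0.46 in F3_WT, -0.34 in F1_Het and -0.16 in F4_KO. In D it was 0.23 and -0.03 in WT, -0.40 and -0.18 in Het, and 0.76 and 0.58 in KO. The difference between F and D was thus -0.56 within WT, -0.05 within Het and -0.83 within KO, with 1 F library in each and no test. In bulk tissue, fewer cells of a type and less RNA of it per cell cannot be told apart.

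The meningeal and fibroblast list ran the same way, with 19 of 20 members negative, a median of -0.57 and 9 lower at an unadjusted p under 0.05. Over all genes 4.5% were lower at that level. Every F library lay below every D library for 1 of the 20, beside 1.92% of all genes. Col3a1, a collagen of fibroblasts, had 323, 232 and 407 CPM in F1_Het, F3_WT and F4_KO and 231 to 994 CPM in D libraries, and Fn1, fibronectin, had 306 to 461 CPM in F and 238 to 717 CPM in D. The summed level of the list was 1359 to 1956 CPM in F and 1295 to 3975 CPM in D, which overlap. Differences within WT, Het and KO were -0.60, -0.03 and -0.88 on the list's mean log2 CPM. Microglia and macrophage markers had 18 of 20 members negative and a median of -0.24. Mrc1, of border macrophages, had 25.0, 15.5 and 24.8 CPM in F1_Het, F3_WT and F4_KO and 20.9 to 52.5 CPM in D. Erythroid genes had 15 of 18 members negative, a median of -0.14 and none at an unadjusted p under 0.05 in either direction. The neural crest list had 10 of 12 tested members negative. Its mean log2 CPM was 1.10 in D1_Het, -0.52 to 0.44 in the other D libraries and -0.48 to 0.04 in F, which overlap. Ngfr, the neurotrophin receptor, had 16.2, 15.5 and 16.7 CPM in F and 19.7 to 25.6 CPM in D, with no overlap. Its edgeR adjusted p was 0.39 and its DESeq2 adjusted p 0.000198.

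The hem and choroid plexus list had 20 of 22 members negative and a median of -0.33. Its most abundant member, the choroid plexus transthyretin gene Ttr, overlapped widely, at 291, 516 and 144 CPM in F1_Het, F3_WT and F4_KO and 125 to 561 CPM in D libraries. Axin2, a target of Wnt signalling, had 85.7, 90.2 and 87.2 CPM in F and 92.5 to 155 CPM in D. Every F library lay below every D library for Axin2 and for Bmp6, Bmp7 and Msx1, signalling and target genes of the BMP pathway, the last 3 named after their values were seen. The list's defining choroid plexus marker thus overlapped while 4 other members did not, 4 of 22 beside 1.92% of all genes. None of the 22 passed the adjusted test by edgeR, and DESeq2 called Bmp6 (adjusted p = 0.00091).

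Lists of the cortex's own cells differed in their medians. The radial glia list had a median of 0.03, with 13 of 20 members positive and none at an unadjusted p under 0.05. Vim, an intermediate filament gene of radial glia, had 689, 716 and 707 CPM in F1_Het, F3_WT and F4_KO and 557 to 767 CPM in D libraries. Intermediate progenitor genes had a median of 0.09, and their transcription factor gene Eomes had 282, 333 and 287 CPM in F and 82.4 to 388 CPM in D. General neuron genes were positive for 20 of 20 members with a median of 0.21, yet none had an unadjusted p under 0.05. Their mean per library ran from 0.04 to 0.34 in F and from -0.98 (D3_KO) to 0.92 (D1_Het) in D, so all F libraries lay inside the range of D. Deep layer and upper layer lists had medians of 0.01 and 0.11, and the Cajal-Retzius list -0.13, with 11 of 14 members negative. The mean of the Cajal-Retzius list was 1.63 in D1_Het, -0.68 to 0.04 in the other D libraries and -0.14 to 0.11 in F. Its median ran from -0.37 to 0.26 over 19 alternatives, so its direction was not stable. The gliogenesis list had 12 of 18 members negative, a median of -0.28 and 4 lower at an unadjusted p under 0.05, beside 4.5% of all genes. DESeq2 called 2 of its members, both lower in F and named after their values were seen. Sparcl1, a secreted matrix protein of astrocytes, had 84.7, 85.3 and 99.6 CPM in F1_Het, F3_WT and F4_KO and 101 to 228 CPM in D libraries. Tril, an accessory protein of Toll-like receptors, had 17.05 to 24.3 CPM in F and 22.4 to 51.8 CPM in D. D3_KO and D8_KO were the highest for both, as for the vascular list. Defining cortical genes were present in every library, as were Pax6, of radial glia, at 159 to 189 CPM in F and 83.9 to 187 CPM in D, and Tbr1, of early cortical neurons, at 347 to 372 CPM in F and 52.8 to 374 CPM in D.

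Genes of the ganglionic eminence varied more inside letter D than between the letters. The list had 19 of 25 members positive and a median of 0.65. Dlx1 had 184, 110 and 112 CPM in F1_Het, F3_WT and F4_KO. In D it had 8.72, 14.4 and 28.8 CPM in D1_Het, D4_Het and D3_KO, 80.3 and 78.6 CPM in D5_WT and D6_WT, and 176 CPM in D8_KO. All F libraries were at the high end, D8_KO was among them, and the log2 fold change was 1.77 ± 0.89 (edgeR adjusted p = 0.895). For the hypothalamic list, with 9 of 20 members tested, 6 were positive and 3 negative and the median was 0.70. Fezf1, a forebrain transcription factor gene, had 7.80, 16.4 and 10.7 CPM in F and 0.139 to 9.82 CPM in D. Foxd1, a further transcription factor gene of the list, had 3.57, 3.09 and 4.55 CPM in F and 1.35 to 7.95 CPM in D, with a negative log2 fold change of -0.24. Six6, an eye and hypothalamus gene named after its values were seen, had 0.672 to 1.65 CPM in F and 0 to 0.390 CPM in D, with no overlap, while Tbx3, also named after its values were seen, had every F library below every D library (log2 fold change -0.89). None passed by edgeR, and DESeq2 called Fezf1 and Six6.

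The thalamic and midbrain markers Tcf7l2 and Mab21l2 were highest in a single D library, D1_Het. The thalamic list had 14 of 16 tested members negative and a median of -1.31. Tcf7l2, a thalamic transcription factor gene, had 22.4, 14.3 and 19.5 CPM in F1_Het, F3_WT and F4_KO, 657 CPM in D1_Het, 63.3 CPM in D8_KO and 15.8 to 17.2 CPM in the other 4 D libraries. Mab21l2, of the midbrain list, had 0.305 to 0.627 CPM in F, 145 CPM in D1_Het and 0.134 to 0.606 CPM in the rest of D. The negative values thus came with D1_Het, and without D1_Het the thalamic median was -0.14 and the midbrain and hindbrain median 0.02. How far this library's makeup enters other values was not tested beyond leaving it out. 

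Chaperone genes had mostly positive log2 fold changes, none past the adjusted test by edgeR or DESeq2. The heat shock list had 16 of 20 members positive and a median of 0.14. Hspa8, the constitutive HSP70, had 2074, 2086 and 2177 CPM in F1_Het, F3_WT and F4_KO and 1496 to 2067 CPM in D libraries. Every F library was above every D library for Hspa8, Hspa5, Hsph1 and Hsp90aa1, 4 of 20 beside 1.44% of all genes, with log2 fold changes of 0.21, 0.33, 0.29 and 0.16 and edgeR adjusted p from 0.661 to 0.831. The last 3 were named after their values were seen. Hsp90ab1, the most abundant member, had 2564 to 2698 CPM in F and 2233 to 2806 CPM in D, which overlap. On the list's mean log2 CPM the F libraries lay between 0.08 and 0.12 and the D libraries between -0.18 and 0.05.

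**Figure D5:**
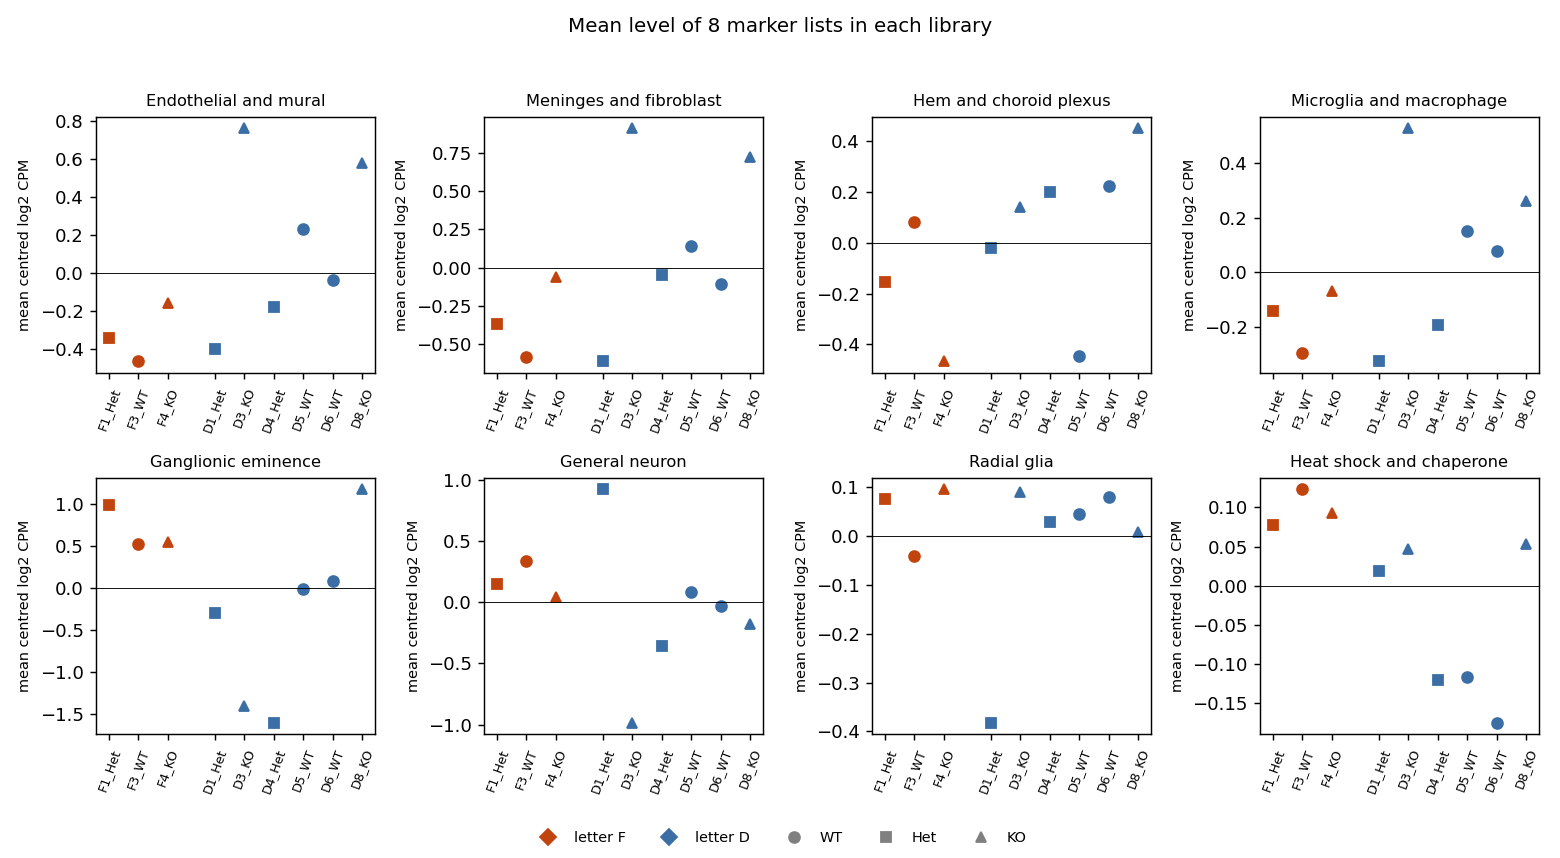
Mean centred log2 CPM of 8 gene lists in each library, letter F on the left and letter D on the right, with marker shapes for genotype and 0 as the mean of the 9 libraries. The F libraries lie below 0 for endothelial and meningeal lists, as do D1_Het, D4_Het and D6_WT, while D3_KO and D8_KO are highest, and letter F lies above all D libraries for the heat shock list.

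Medians of other programmes are given as values. Lists of S phase and of G2 and M phase genes had medians of 0.04 and 0.06, with no member at an unadjusted p under 0.05. The 44 ribosomal protein genes had a median of 0.04 and the 15 mitochondrially encoded transcripts 0.10, neither with a member past that level. Replication-dependent histone genes, which lack a poly(A) tail, had a median of 0.17. The list of abundant small noncoding RNAs, with 6 of 19 members tested, had a median of 0.52. Its member Rn7sk, the 7SK RNA, had 0.346, 0.246 and 2.81 CPM in F1_Het, F3_WT and F4_KO and 0.0755 to 0.416 CPM in D libraries, so F4_KO alone was high. A list of genes known to differ between laboratory mouse strains had 9 of 24 tested members positive and a median of -0.07, with H2-T22 and the heme synthesis gene Alad at an unadjusted p under 0.05, both also called by DESeq2. The Mediator list had a median of 0.01. Med13l, on chromosome 5, had 160, 116 and 163 CPM in F1_Het, F3_WT and F4_KO and 130 to 156 CPM in D libraries. Its count did not separate the labelled genotypes in letter D. In letter F, with 1 library per genotype, this cannot be judged. Whole-gene counts are no check of a null allele that leaves most of its transcript in place. Genotypes here are therefore those of the labels.

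Depth and RNA measures of the letters overlapped. Totals were 37909377 to 44290741 counts in F and 38161494 to 52992392 counts in D. The mitochondrial share was 2.58% to 3.26% in F and 2.48% to 2.77% in D. These 2 measures, the share of the 100 largest genes and the number of genes detected gave two-sided exact permutation p from 0.155 to 0.321 (adjusted 0.321 for all 4), where the smallest p possible is 0.0119. On the second principal component (16.5% of the variance) F libraries lay between 28.9 and 39.7 and D libraries between -33.7 and 7.93. The first (31.5%) set D1_Het apart at -90.4. By Xist and Y-linked genes F1_Het and F4_KO were female and F3_WT male, while D1_Het and D5_WT were female and the other 4 D embryos male, so sex was not balanced over the letters. With embryo sex added to the model, Gm8399 was the only call (edgeR adjusted p = 0.00938), and the other 6 genes had adjusted p from 0.1 to 0.138.

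The number of calls changed when single libraries of either letter were left out. Without F1_Het, F3_WT or F4_KO, 1 gene was called each time, Gm8399, without D4_Het 14 (6 higher and 8 lower in F), without D1_Het 7 (6 higher and 1 lower), and without each of the other D libraries 2 or 3, all higher. The 7 genes were higher in F in every alternative that tested them. The log2 fold change of Gm8399 stayed between 2.05 and 2.28 over 19 alternatives and passed in 18 of them, Gm7666 stayed between 0.83 and 0.92 and passed in 9, Rpl17-ps5 between 1.47 and 1.73 and passed in 11, Gm12892 between 1.69 and 1.91 and passed in 9, and Gm46209 between 4.14 and 4.64 and passed in 12. Rpl17-ps4 ran from 3.51 to 4.34 and passed in 4 of 18, and BC023719 ran from 9.29 to 11.7 and passed in 13 of 19.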

How the data were processed

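Counts per gene were deposited for 9 bulk libraries and 55335 Ensembl genes, raw and whole, as the values show. STAR and StringTie 2.2.1 are named beside quality control and single-cell tools and the build mm10, per the submitters' processing notes; which made the counts is not given in the sources used here. No row lacked a gene. Libraries were grouped by the letter in their descriptions. Positions, symbols (55154 IDs matched) and gene classes come from GENCODE M21 on GRCm38.

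The test was edgeR 4.0.16 (R 4.3.3; quasi-likelihood F test, TMM factors, filterByExpr by genotype, robust) with genotype as covariate. The filter kept 18844 genes with 99.95% of the counts, and the biological coefficient of variation was 27.8%. CPM used TMM-scaled library sizes. List scores are means over members of log2 CPM, centred on the 9 libraries. Copies were found with BLAST 2.17.0 at 90% identity over 80% of the parent's coding sequence; other matches covered at least 50% of the transcript. Library totals, 37909377 to 52992392, put the floor of 3 counts at 0.0566 to 0.0799 CPM. Intervals are exact at 95%. On simulated counts of 18547 genes for F against D, this step called 6% of 50 genes changed 1.5-fold, 52% at 2-fold, 94% at 4-fold and 96% at 8-fold. It also called 4 unchanged genes. The changed genes had a mean of at least 1 CPM, so the shares do not cover genes below that. No effect of genotype or sex was simulated.

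No pair of libraries was a copy of another: the mean chi-square per gene was 9.64 to 44 between F libraries and 22 to 241 between D libraries. Across the letters it was 17.3 to 123, so by this measure pairs within and across letters overlapped. The gene lists and the comparison were chosen with earlier results of these data known. Genes named are the called ones, the next 5 in each direction by p, and the 2 most abundant members of a list described, of which 1 is not reported here; others are marked as named after their values were seen. Alternatives were other size factors, filters, DESeq2 1.42.0, limma-voom 3.58.1, other covariates, a replicate block, and single libraries left out.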

Additional observations from a re-analysis of the deposited data

Results flagged for a closer look

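Flags mark a library far from the others of letter D, at a rate that chance gives in about 1 of 20 groups; 7 of 65 measures checked were flagged, 4 of them for D1_Het. D1_Het was lowest of the D libraries for the mean level of radial glia (-0.38, the others 0.01 to 0.09), S phase (-0.76, the others 0.02 to 0.38) and G2 and M phase genes (-0.85, the others -0.01 to 0.39), and highest for Cajal-Retzius genes (1.63, the others -0.68 to 0.04), all as centred log2 CPM. Apcdd1 had 222 CPM in D8_KO, against 190 to 197 CPM in the other D libraries, and Gm266 2.55 CPM in D4_Het, against 0.966 to 1.54. BC023719 had 0.0223 CPM, a single read, in D3_KO and none in the other D libraries. The 3 libraries of letter F were too few for this check.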

How the results depend on the processing

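The 7 called genes, all higher in F, were 7 with DESeq2's size factors in edgeR, 6 with library totals, 6 without a filter, 6 at 1 CPM in 3 libraries and 7 without X and Y genes, and each of these was among the original 7. DESeq2 called 177 (44 higher, 133 lower) and limma-voom 8 with 1 lower; both hold all 7. Without genotype in the model there were 12 calls (4 lower), with embryo sex 1 (1 higher), and at an adjusted p under 0.01 2 (2 higher). Protein-coding genes alone gave 0 calls (0 higher), and leaving out D1_Het and D8_KO gave 6 calls with 1 lower; these 2 alternatives were chosen after seeing the data. Leaving out single libraries gave 1 to 14 calls, 1 to 6 higher and 0 to 8 lower. The cause of these shifts was not tested, beyond the smaller numbers of genes or libraries that some imply. With the number in the descriptions as a replicate block, in the 6 libraries that share a number and without genotype, 0 genes were called (0 higher), with 450 at an unadjusted p under 0.05 by edgeR. Deviations of same-numbered F and D libraries from their letter means correlated at 0.0796, -0.0686 and -0.0987. These were F1_Het with D1_Het, F3_WT with D3_KO, and F4_KO with D4_Het. All but the first join different genotypes, and genotype was not removed. The correlations thus cannot show whether the numbers pair the libraries. None of the 17 genes named by p changed direction in any alternative. List medians moved by less than the SD of the D libraries in 818 of 835 recomputations, and the endothelial, meningeal, hem, microglial, ganglionic eminence, neuron and heat shock medians kept their sign in all 19. That SD is wide for lists in which D1_Het stands apart, so the count says little about them. The thalamic median ran from -2.82 to 0.18 and the midbrain and hindbrain median from -2.19 to 0.49. Among the scalings, the median of all genes lay between -0.01 and -0.00.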
